A study of Homo sapiens with 4 samples.

Results

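The genes described here are 10 components of the machinery that carries a cell from G1 into S phase: the D-type cyclins CCND1, CCND2 and CCND3, the E-type cyclins CCNE1 and CCNE2, the kinases CDK2, CDK4 and CDK6, and the inhibitors CDKN1B and CDKN2D. They were chosen by gene symbol, and all 10 were found once each among the 23622 genes of the deposited table. RNA came from MV4-11, a human acute myeloid leukemia cell line of monocytic type that carries the KMT2A-AFF1 fusion and an internal tandem duplication in FLT3, both shared by every library. The comparison was between groups of 2 libraries each: MV4-11 cells labelled NC, here sh-NC, and MV4-11 cells in which the transcription factor IRF1 was knocked down with a short hairpin RNA, here sh-IRF1. The labels list the genotype of all 4 libraries as WT and enter no treatment for the NC libraries, whereas the study uses sh-NC for a control hairpin delivered by lentivirus. The labels do not say which hairpin was used in which library, how long after infection RNA was taken, or whether the 2 libraries of a group came from separate cultures, so the p-values measure the spread between these libraries, which may be technical.

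In G1, D-type cyclins bind CDK4 or CDK6, and E-type cyclins bind CDK2. The active kinases phosphorylate the retinoblastoma protein, which then releases E2F factors that drive the genes of S phase. Inhibitors of the INK4 family, to which CDKN2D (p19) belongs, bind CDK4 and CDK6 alone, and those of the CIP/KIP family, to which CDKN1B (p27) belongs, bind cyclin and kinase complexes more widely. The comparison asks how the transcripts of this machinery stood when IRF1 was reduced, in a study that also followed the growth and the cell cycle of these cells.

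The measured value is the normalized read count, the reads of a gene divided by 1 size factor per library. Depth was similar, and the 4 libraries held between 17635908 and 18695337 reads. IRF1, the targeted gene, had 785 and 738 normalized reads in sh-NC and 430 and 432 in sh-IRF1, so that 56.6% of its control level remained (log2 fold change -0.82, standard error 0.0904, adjusted p = 1.69e-10 from limma), with 22.9% of its exonic bases opposite other genes. All 7 myeloid markers looked for were present (27424 to 30104 reads per library in sum), and COL1A1, a collagen gene of fibroblasts, had 0 to 5 reads per library. Differences were tested with limma on log2(normalized count + 1) over 14120 genes; the added 1 makes changes of genes with low counts look smaller than they are. A gene was called at an adjusted p under 0.05. With 2 libraries against 2, an exact permutation test of a single gene cannot give a p below 0.33, and the calls depend on limma pooling the variance of many genes.

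Of the 10 genes, 4 fell in sh-IRF1 (CCND1, CCND2, CDKN1B and CDKN2D), 2 rose (CCNE2 and CDK4) and 4 were not called (CCND3, CCNE1, CDK2 and CDK6). Among all genes tested, 21.9% were called lower and 20.3% higher, so the shares of 4 and 2 in 10 have to be read against a background in which such calls are common. With a log2 fold change beyond 0.5 as well, 3 of the 10 were lower, against 7.56% of all genes, and 1 was higher, against 8.27%. The 3 lower genes were CCND1, CCND2 and CDKN2D, which lay on that limit at -0.50, and CCND2 alone was left without sh-NC replicate 1 or without sh-IRF1 replicate 1. The 10 had a median log2 fold change of -0.10, beside -0.0019 over all genes tested. In 9 of the 10 genes the 2 groups did not overlap, against 69.2% of all genes tested. In RNA from bulk cells, a smaller share of cells in a given phase and less transcript per cell cannot be told apart. From flow cytometry, the study reported a cell cycle block mainly in G2/M after IRF1 knockdown. The part of phase in the differences given here was not tested.

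**Figure D1:**
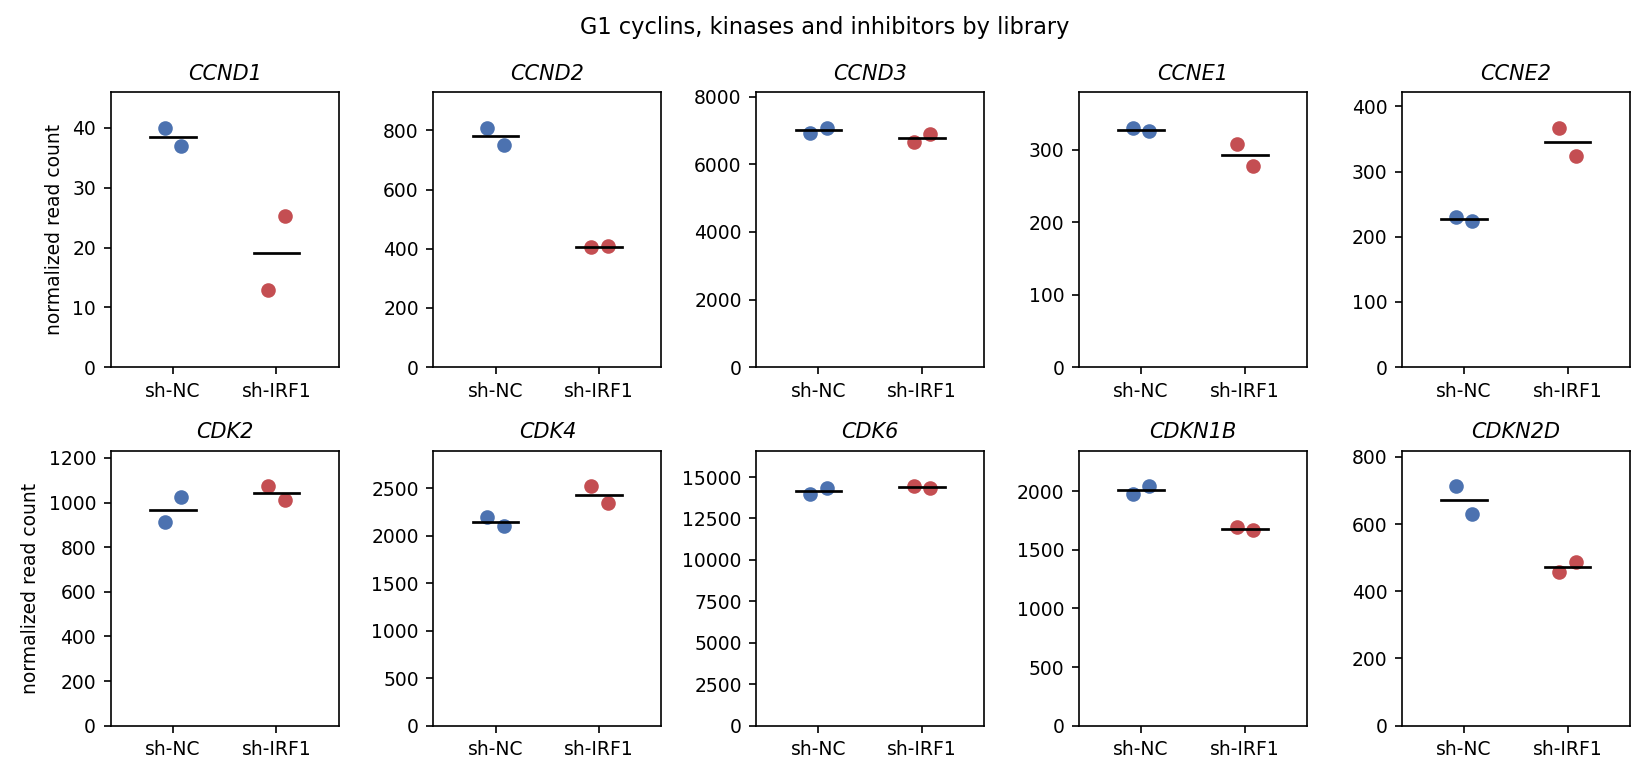
Normalized read count (vertical axes, each from 0) of the 10 genes in each library, with 2 sh-NC libraries in blue and 2 sh-IRF1 libraries in red; points are libraries and bars are group means. CCND2 fell from about 780 to 407 normalized reads, CCNE2 rose from 227 to 346, and CDK2 is the gene whose groups overlap.

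Upstream sequence was at hand for 6 of the 10 genes, in 9 windows of the RefSeq promoter table on GRCh38.p14 (CCND3 with 3, CDK6 with 2, and CCNE1, CDK4, CDKN1B and CDKN2D with 1 each). The letters of a few common motifs were searched on both strands in the 250 bases before each start. CACGTG, the E-box core that MYC with MAX can bind, was found in 1 of the 9 windows, that of CDK4, and in 6.34% of all 35116 windows. CCAAT, the box bound by NF-Y, was found in 4 of the 9 windows (of CCND3, CDKN1B and CDKN2D) and in 32.0% of all windows. GGGCGG, a GC box, was found in 7 of the 9 windows and in 42.6% of all windows. Those 7 windows covered all 6 genes, of which CCND3 and CDK6 had more than 1 window. GTAAACA, a FOXO site, and 2 copies of GAAA with any 2 bases between them, part of the site that interferon regulatory factors bind, were found in 0 of the 9 windows and in 2.98% and 3.02% of all windows, which says only that these letters are not in these windows. CDK4 is shown because it was the kinase called higher and the one gene with the E-box letters, which are in capitals. CDKN1B and CDKN2D are shown because both inhibitors fell, with CCAAT or its reverse complement in capitals. Each sequence is written 5′ to 3′ on the strand of the gene and leaves out bases that lie in annotated exons. The stretches are chr12:57752448-57752560 (minus strand, positions -250 to -138 from the start) for CDK4, chr12:12717118-12717367 (plus strand, positions -250 to -1) for CDKN1B and chr19:10569060-10569229 (minus strand, positions -250 to -81) for CDKN2D. Those of CDK4 and CDKN1B lie within introns of longer annotated transcripts of the same genes.
CDK4: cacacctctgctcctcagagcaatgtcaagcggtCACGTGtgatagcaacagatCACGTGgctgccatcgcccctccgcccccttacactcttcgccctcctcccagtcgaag
CDKN1B: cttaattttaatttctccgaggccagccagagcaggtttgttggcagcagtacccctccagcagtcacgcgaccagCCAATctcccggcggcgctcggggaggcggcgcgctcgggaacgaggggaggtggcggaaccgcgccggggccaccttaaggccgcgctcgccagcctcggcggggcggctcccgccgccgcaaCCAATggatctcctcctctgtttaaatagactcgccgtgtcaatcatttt
CDKN2D: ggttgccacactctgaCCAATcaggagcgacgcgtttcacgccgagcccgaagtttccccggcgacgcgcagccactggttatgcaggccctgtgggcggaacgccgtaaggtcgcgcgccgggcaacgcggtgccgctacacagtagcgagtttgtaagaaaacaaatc
The stretch of CDK4 holds 2 E-box cores, at positions -216 and -196, and a further one at -101 lies in the part that is exonic in other transcripts. CDKN1B holds CCAAT at -174 and -50, and CDKN2D holds it at -234. A match of letters describes the sequence and is not evidence of a bound site.

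Among the D-type cyclins, CCND2 fell to about 52% of its control level, CCND1 fell from a level near the lower end of the measured range, and CCND3 was not called. CCND2 (ENSG00000118971, chromosome 12 from 4269771 to 4305353 on the plus strand of GRCh38) had 808 and 751 normalized reads in the sh-NC libraries and 406 and 409 in the sh-IRF1 libraries. Both sh-IRF1 libraries were far below both sh-NC libraries, and the gap between the groups was wider than that between the replicates. The log2 fold change was -0.93 (standard error 0.0913, 95% interval -1.12 to -0.75, adjusted p = 5.67e-12 from limma). CCND1 (ENSG00000110092, chromosome 11 from 69641156 to 69654474, plus strand) had 40.0 and 37.0 normalized reads in sh-NC and 12.9 and 25.3 in sh-IRF1, which rest on 39, 36, 13 and 27 reads. The groups did not overlap, but the 2 sh-IRF1 libraries differed from each other by 0.92 on the log2 scale. Its log2 fold change was -1.04 (standard error 0.411, 95% interval -1.87 to -0.22, adjusted p = 0.0366 from limma). The call of CCND1 was lost with edgeR (adjusted p = 0.0571) and DESeq2 (adjusted p = 0.128) on the recovered reads, and without either sh-NC library or without sh-IRF1 replicate 1 (adjusted p from 0.0764 to 0.334 with limma). Over all its alternatives the adjusted p ran from 0.0194 to 0.334, and without sh-IRF1 replicate 1 the log2 fold change was -0.59. CCND3 (ENSG00000112576, chromosome 6 from 41934934 to 42050357, minus strand) had 6938 and 7076 normalized reads in sh-NC and 6666 and 6899 in sh-IRF1. Its groups lay next to each other without overlap, and the log2 fold change was -0.05 with a standard error of 0.0336 (limma, adjusted p = 0.269). The 95% interval of CCND3 ran from 0.924 to 1.01 times the control level, so a fall of the size seen in CCND2 lies outside it. CCND1 and CCND2 were drawn in the study's own cell cycle heat map, which was made from these libraries, so their direction is not independent evidence. Part of the exonic bases of both genes are shared with other genes (13.8% for CCND2 and 10.4% for CCND1). Those on the opposite strand include CCND2-AS1, with 0 to 4 reads per library, and LTO1, with 196 to 265 reads (log2 fold change -0.20, adjusted p = 0.297 from limma). ENSG00000285901, which shares exonic bases with CCND2, lies on the same strand.

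Of the E-type cyclins CCNE1 and CCNE2, which activate CDK2 at the entry to S phase, CCNE2 rose and CCNE1 was not called. CCNE2 (ENSG00000175305, chromosome 8 from 94879770 to 94896678, minus strand) had 231 and 224 normalized reads in sh-NC and 367 and 324 in sh-IRF1. Both sh-IRF1 libraries were above both sh-NC libraries, at 152% of the control level, and the log2 fold change was 0.60 (standard error 0.129, 95% interval 0.34 to 0.86, adjusted p = 0.000146 from limma). CCNE1 (ENSG00000105173, chromosome 19 from 29811991 to 29824312, plus strand) had 330 and 326 normalized reads in sh-NC and 308 and 278 in sh-IRF1. The sh-IRF1 libraries were the lower ones without overlap, and the log2 fold change of -0.16 (standard error 0.122, 95% interval -0.41 to 0.08) was not called (adjusted p = 0.299 from limma). Reads of CCNE2 are uncertain, because 37.1% of its exonic bases, and 57.1% of those of its representative transcript, lie opposite exons of other genes, and the use of strand in counting is not given in the sources used here. INTS8, the main gene opposite to it, had 1549 and 1503 normalized reads in sh-NC and 1430 and 1473 in sh-IRF1 (log2 fold change -0.07, adjusted p = 0.336 from limma). The other opposite gene in the table, ENSG00000272509, had 3 to 24 reads per library, and the part of either gene in the difference of CCNE2 was not tested.

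Of the kinases, CDK4 rose slightly and CDK2 and CDK6 were not called. CDK4 (ENSG00000135446, chromosome 12 from 57747727 to 57756013, minus strand) had 2193 and 2103 normalized reads in sh-NC and 2518 and 2341 in sh-IRF1. The 2 groups did not overlap, and CDK4 stood at 113% of its control level (log2 fold change 0.18, standard error 0.0497, 95% interval 0.08 to 0.28, adjusted p = 0.00315 from limma). The call was lost without sh-IRF1 replicate 1, the library with the highest value (log2 fold change 0.12, adjusted p = 0.132, in a range from 0.000204 to 0.132 over its alternatives). CDK4 shares 44.2% of its exonic bases, and 57.8% of those of its representative transcript, with TSPAN31 on the opposite strand, so its reads are uncertain too. TSPAN31 had 344 and 424 normalized reads in sh-NC and 438 and 444 in sh-IRF1 (log2 fold change 0.21, standard error 0.11, adjusted p = 0.13 from limma), and its part in the difference of CDK4 was not tested.

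CDK6 (ENSG00000105810, chromosome 7 from 92604921 to 92836573, minus strand) had the largest normalized count of the 10 genes and the longest representative transcript, of 11663 bases. It had 13957 and 14323 normalized reads in sh-NC and 14435 and 14368 in sh-IRF1. The values of all 4 libraries were within a narrow range, and limma gave a log2 fold change of 0.03 with standard error 0.0273 and adjusted p = 0.465 and a 95% interval from 0.98 to 1.06 times the control level. With scaling by total reads alone, which moved the median of all genes to 0.04, CDK6 was called higher (log2 fold change 0.07, adjusted p = 0.029, in a range from 0.029 to 0.862 over its alternatives). CDK2 (ENSG00000123374, chromosome 12 from 55966781 to 55972789, plus strand), the kinase of the E-type cyclins, had 914 and 1023 normalized reads in sh-NC and 1072 and 1011 in sh-IRF1. Its groups overlapped, and the log2 fold change was 0.11 (standard error 0.0714, 95% interval -0.04 to 0.25, adjusted p = 0.237 from limma). CDK2 shares 16.8% of its exonic bases with genes on the opposite strand, mainly PMEL, which had 13 to 44 reads per library. In none of the 3 kinases did the interval reach a fall of more than 0.04 on the log2 scale. These are transcript values. The study reported lower protein levels of CDK2, CDK4 and CDK6 after IRF1 knockdown, and the proteins were not analysed here.

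**Figure D2:**
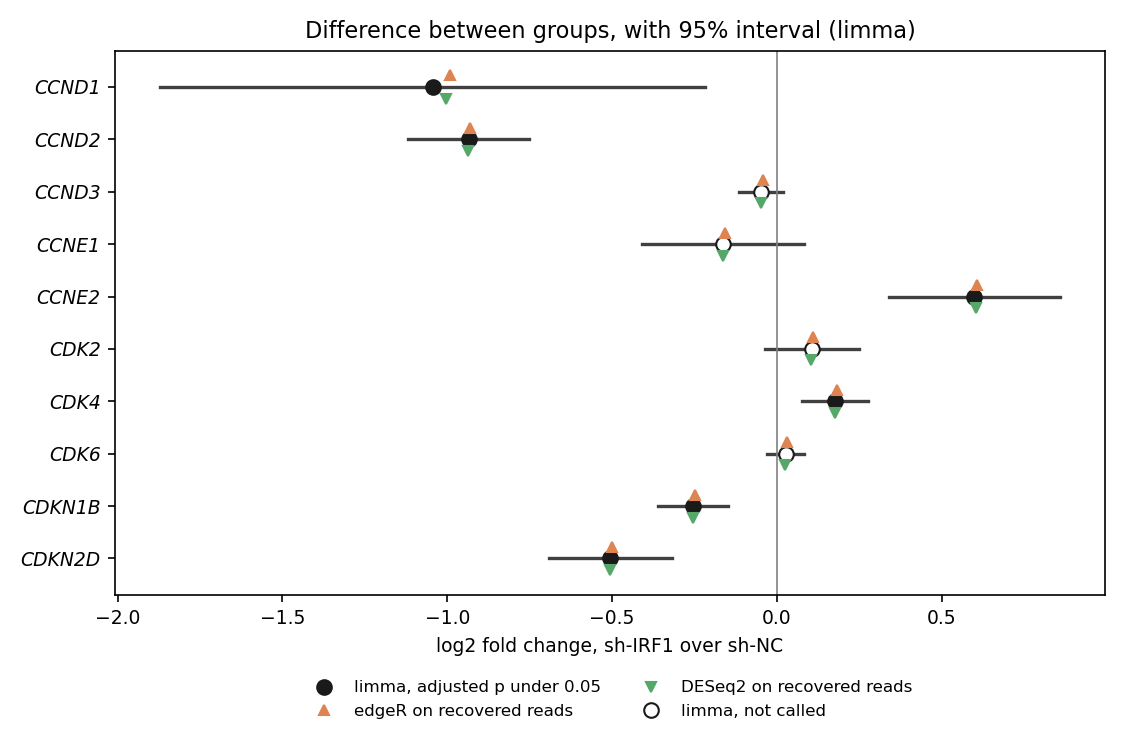
Log2 fold change of sh-IRF1 over sh-NC (horizontal axis) for the 10 genes. Circles are limma estimates with their 95% intervals, filled where the adjusted p was under 0.05, and triangles are edgeR and DESeq2 estimates on the recovered reads; the interval of CCND1 is the widest, from -1.87 to -0.22, and those of CCND3 and CDK6 are the narrowest.

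Both inhibitors fell. CDKN1B (ENSG00000111276, chromosome 12 from 12685498 to 12722369, plus strand), which encodes p27, had 1972 and 2040 normalized reads in sh-NC and 1694 and 1667 in sh-IRF1. The groups were far apart beside the spread within them, and CDKN1B stood at 83.8% of its control level (log2 fold change -0.25, standard error 0.0528, 95% interval -0.36 to -0.15, adjusted p = 8.73e-05 from limma). CDKN2D (ENSG00000129355, chromosome 19 from 10566460 to 10569059, minus strand), which encodes p19 of the INK4 family, had 712 and 629 normalized reads in sh-NC and 457 and 486 in sh-IRF1. All sh-IRF1 values were below all sh-NC values, at 70.3% of the control level (log2 fold change -0.50, standard error 0.0932, 95% interval -0.69 to -0.32, adjusted p = 1.46e-05 from limma). Neither gene shares exonic bases with another gene, and both calls held in all 15 alternatives.

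Levels of different genes were compared as normalized reads per kilobase of the representative transcript. CCND3 had the highest level of the 10 genes, between 3290 and 3493 in the 4 libraries. CDK4 (1127 to 1350) and CDK6 (1197 to 1238) followed, and their ranges overlapped, so their order was not resolved. CDKN1B stood at 691 to 846, CDK2 at 408 to 479 and CDKN2D at 320 to 499.6, with overlap between CDK2 and CDKN2D. CCNE1 (142 to 169) came next, then CCNE2 (83.7 to 137) and CCND2 (62.5 to 124), whose ranges overlapped. CCND1 was the lowest by a wide margin, at 3.05 to 9.44. The choice of length moved part of this order: with all annotated exons of a gene as its length, CDK6 lay above CDK4, CDKN2D moved to rank 4 and CDKN1B dropped to rank 6, and CCND2 lay above CCNE2, whereas CCND3 stayed first, CCNE1 stayed at rank 7 and CCND1 stayed last.

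**Figure D3:**
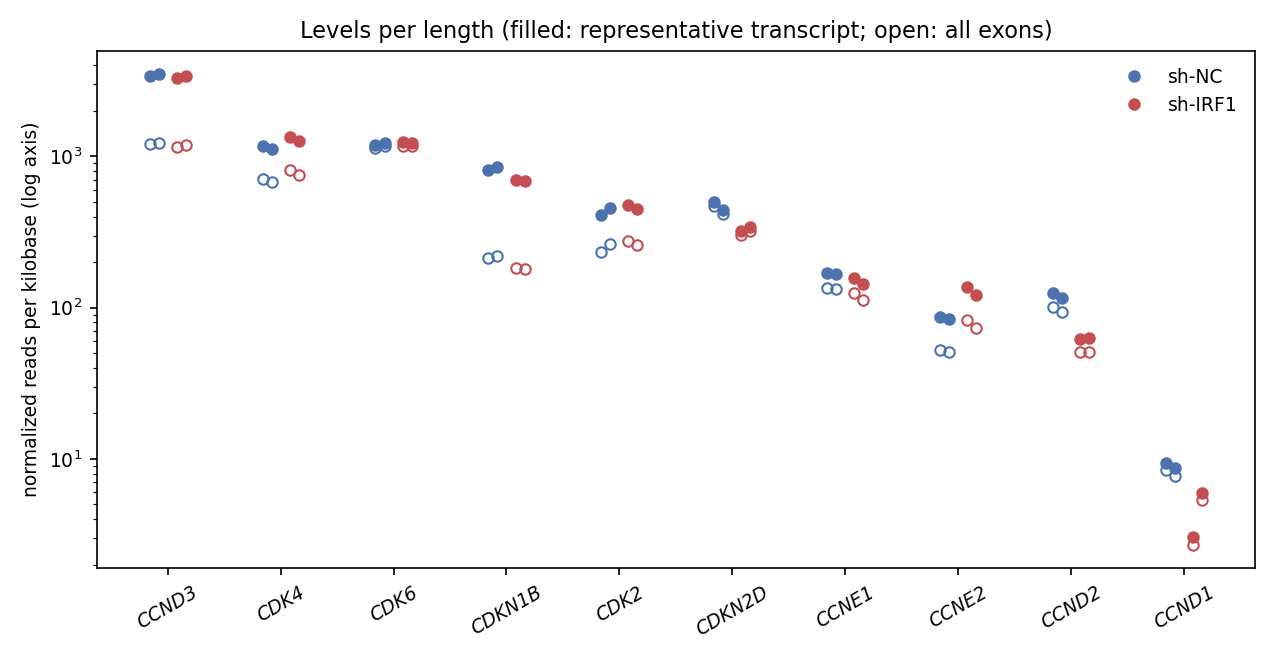
Normalized reads per kilobase (vertical log axis) of the 10 genes in each library, ordered by mean level, with sh-NC in blue and sh-IRF1 in red. Filled points use the length of the representative transcript and open points that of all annotated exons; CCND3 is highest and CCND1 lowest on both, and CDKN1B moves most between them.

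Per length, CCND3 made up nearly all of the D-type cyclin transcripts. Its share of the D-type sum was 96.2% and 96.6% in the sh-NC libraries and 98.05% and 98.0% in the sh-IRF1 libraries, and with all annotated exons as the length it was 91.7% and 92.3% against 95.6% and 95.5%. The sum of the D-type cyclins was 3588 ± 41.2 normalized reads per kilobase in sh-NC against 3415 ± 83.8 for sh-IRF1 (SD, n = 2 each), 95.2% of the control level. The fall of CCND2 and CCND1 therefore took place in a small share of this class. In the E-type class the share of CCNE2 was 33.8% and 33.4% in sh-NC and 46.5% and 46.0% in sh-IRF1, while the sum was 253 ± 3.53 and 279 ± 22.2 (SD, n = 2 each). CDK4 made up 49.6% and 47.9% of the sum of CDK4 and CDK6 in sh-NC and 52.2% and 50.5% in sh-IRF1, but with all annotated exons as the length it was 38.3% and 36.7% against 40.8% and 39.2%, so which kinase had the larger share depended on the length used. Those sums and shares were not tested.

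Ratios between 2 genes of the same library do not depend on its size factor, and none of the 4 ratios overlapped between groups. Each of the 4 set a called gene over a gene that was not called, so they restate the single-gene values. The share of other gene pairs without overlap was not computed. The log2 ratio of CCND2 to CCND3, in normalized counts, was -3.10 and -3.24 in sh-NC and -4.04 and -4.08 in sh-IRF1. That of CCNE2 to CCNE1 changed sign, from -0.52 and -0.54 to 0.25 and 0.22, so that reads of CCNE2 outnumbered those of CCNE1 in sh-IRF1 alone, while per length CCNE1 remained the larger in all 4 libraries. The ratio of CDKN1B to CDK2, an inhibitor to one of the kinases it binds, was 1.11 and 1.00 in sh-NC and 0.66 and 0.72 in sh-IRF1. CDK4 to CDK6 moved least, from -2.67 and -2.77 to -2.52 and -2.62. The differences between group means were -0.89, 0.76, -0.36 and 0.15, each with an exact permutation p of 0.333 (two-sided), the smallest this design allows.

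**Figure D4:**
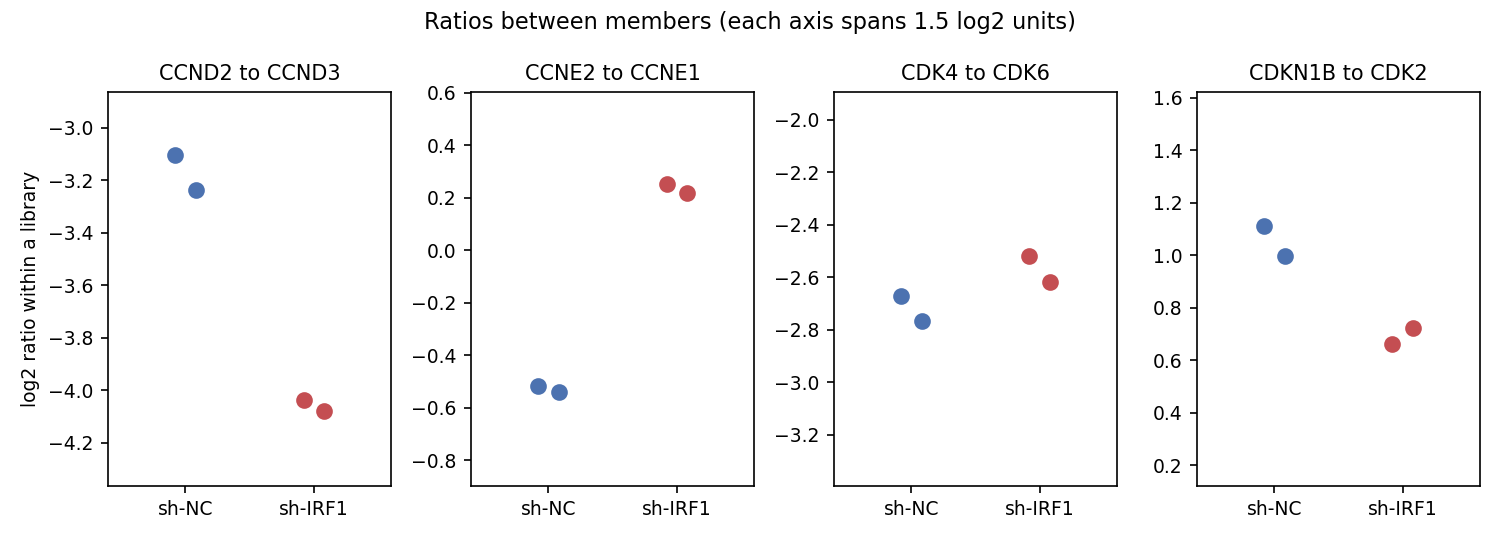
Log2 ratio of the normalized counts of 2 genes within a library (vertical axes, each of the same length but not from 0) for the 2 sh-NC and 2 sh-IRF1 libraries. CCND2 to CCND3 and CDKN1B to CDK2 are lower in sh-IRF1, and CCNE2 to CCNE1 is higher and changes sign.

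The other inhibitors of cyclin-dependent kinases did not move as one group, with 1 of 5 lower and 3 higher (median log2 fold change 0.33). The counts of this list and of those below have to be read beside 21.9% lower and 20.3% higher among all genes tested (median -0.0019). CDKN2C (p18), an INK4 inhibitor like CDKN2D, had 3387 and 3167 normalized reads in sh-NC and 4050 and 4080 in sh-IRF1 (log2 fold change 0.31, adjusted p = 2.22e-08 from limma). CDKN2A, whose row holds both p16 and the alternative product ARF, had 2393 and 2327 in sh-NC and 3043 and 2901 in sh-IRF1 (log2 fold change 0.33, adjusted p = 5.26e-08). CDKN2B (p15) was low, at 55.4 and 22.6 in sh-NC and 97.5 and 81.5 in sh-IRF1 (log2 fold change 1.31, adjusted p = 0.000477), with a log2 fold change of 1.93 without sh-NC replicate 1 and of 0.68 without sh-NC replicate 2, where its call was lost (adjusted p = 0.0548, in a range from 1.04e-07 to 0.0548 over its alternatives). The INK4 genes other than CDKN2D were thus all called higher in sh-IRF1, and CDKN2D was the one that fell. Of the exonic bases of CDKN2A and CDKN2C, 15.3% and 20.4% lie opposite other genes. Per length, the sum of the 4 INK4 genes was 6187 ± 252 normalized reads per kilobase in sh-NC against 7479 ± 69.5 for sh-IRF1 (SD, n = 2 each), and CDKN2D made up 7.85% and 7.34% of it in sh-NC and 4.26% and 4.59% in sh-IRF1. With all annotated exons as the length, the share of CDKN2D was 21.3% and 20.2% in sh-NC and 12.4% and 13.2% in sh-IRF1.

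In the CIP/KIP family, CDKN1A (p21), a target of p53, fell as CDKN1B did. It had 348 and 381 normalized reads in sh-NC and 253 and 262 in sh-IRF1 (log2 fold change -0.50, standard error 0.123, adjusted p = 0.000824 from limma). CDKN1C (p57) had 154 and 143 in sh-NC and 183 and 201 in sh-IRF1, which was not called (log2 fold change 0.37, adjusted p = 0.0635 from limma). Per length, CDKN1B made up between 74.4% and 76.5% of the CIP/KIP sum in all 4 libraries, or between 51.6% and 54.5% with all annotated exons as the length. By the representative transcripts that sum was 1088 ± 26.7 in sh-NC against 927 ± 2.63 for sh-IRF1 (SD, n = 2 each).

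Genes that switch the kinases on or off by phosphorylation gave 1 lower, 3 higher and 4 not called of 8 (median 0.03). Over all genes tested the shares were 21.9% lower and 20.3% higher. WEE1, which places an inhibitory phosphate on CDK1 and CDK2, had 1454 and 1461 normalized reads in sh-NC and 1180 and 1328 in sh-IRF1 (log2 fold change -0.22, adjusted p = 0.00377 from limma), a call lost without sh-IRF1 replicate 1 (adjusted p = 0.177, in a range from 0.00142 to 0.177 over its alternatives). PKMYT1, a related kinase of CDK1, had 2631 and 2554 in sh-NC and 3151 and 3166 in sh-IRF1 (log2 fold change 0.28, adjusted p = 5.85e-07), with 31.9% of its exonic bases shared with other genes. Of 14 genes for the turnover of G1 cyclins and p27, 5 were lower, 3 higher and 6 not called (median -0.12), and the 5 became 3 without sh-NC replicate 2 or without sh-IRF1 replicate 1. SKP2, the F-box protein that marks p27 for breakdown, had 2269 and 2226 normalized reads in sh-NC and 2609 and 2602 in sh-IRF1 (log2 fold change 0.21, adjusted p = 0.000208). FBXO4, another F-box protein, had 1085 and 1074 in sh-NC and 777 and 742 in sh-IRF1 (log2 fold change -0.51, adjusted p = 9.56e-08).

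Downstream of the kinases, the pocket proteins and E2F factors gave 2 lower, 3 higher and 8 not called of 13 (median 0.07). Of all genes tested, 21.9% were lower and 20.3% higher. The 2 lower became 1 under scaling by total reads, without sh-NC replicate 2 or without sh-IRF1 replicate 1. E2F7, a repressor of the E2F family, stood at 2.15 times its control level, with 211 and 240 normalized reads in sh-NC and 507 and 465 in sh-IRF1 (log2 fold change 1.10, adjusted p = 1.07e-10 from limma). TFDP1, the partner with which E2F factors bind DNA, had 7425 and 7480 in sh-NC and 6451 and 6258 in sh-IRF1 (log2 fold change -0.23, adjusted p = 1.38e-07). Of 7 cyclins of S and M phase and CDK1, 4 were lower, 1 higher and 2 not called (median -0.27). CDK1 had 2895 and 2895 normalized reads in sh-NC and 2393 and 2406 in sh-IRF1 (log2 fold change -0.27, adjusted p = 2.64e-06), and CCNB2, a mitotic cyclin, had 2115 and 2276 in sh-NC and 1574 and 1570 in sh-IRF1 (log2 fold change -0.48, adjusted p = 2.1e-10). CCNA1, a cyclin best known from meiosis and from myeloid leukemia, was the one that rose, from 203 and 168 to 682 and 583 (log2 fold change 1.76, adjusted p = 7.45e-17).

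Cyclins and kinases of transcription gave 4 lower, 0 higher and 9 not called of 13 (median -0.04). The shares over all genes tested were 21.9% lower and 20.3% higher. The 0 holds with limma, edgeR and DESeq2, and scaling by total reads alone gave 1 higher. CDK8, the kinase of the Mediator complex, had 1380 and 1357 normalized reads in sh-NC and 891 and 921 in sh-IRF1 (log2 fold change -0.59, adjusted p = 1.89e-10 from limma), and its partner CCNC had 1001 and 1108 in sh-NC and 838 and 772 in sh-IRF1 (log2 fold change -0.39, adjusted p = 2.46e-05), and 13.1% of its exonic bases lie opposite TSTD3. CDK1, CCNB2, CDK8 and CCNC were also drawn in the study's cell cycle heat map, so they are not independent evidence of a direction. Among 13 other cyclins and cyclin-dependent kinases tested of 15 listed, 5 were lower, 2 higher and 6 not called (median -0.01). The 5 became 3 with DESeq2, 2 with scaling by total reads, 3 without either sh-NC library and 2 without sh-IRF1 replicate 2. CCNG1, a cyclin induced by p53, had 2676 and 2594 normalized reads in sh-NC and 1725 and 1799 in sh-IRF1 (log2 fold change -0.58, adjusted p = 1.05e-13), and CDK16 had 1641 and 1622 in sh-NC and 1993 and 1898 in sh-IRF1 (log2 fold change 0.25, adjusted p = 0.00012).

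Of 9 transcription factors known to act on G1 cyclin or p27 genes, 8 were tested, with 3 lower, 2 higher and 3 not called (median -0.10). Beside them, 21.9% of all genes tested were lower and 20.3% higher. MYC, which can raise CCND2 and CDK4 and repress CDKN1B in other settings, had 14198 and 14561 normalized reads in sh-NC and 7380 and 7348 in sh-IRF1 (log2 fold change -0.97, standard error 0.0297, adjusted p = 1.03e-29 from limma). In these libraries CCND2 and CDKN1B were lower and CDK4 was higher where MYC was lower, and the part of MYC in these differences was not tested. FOXO4, one of the FOXO factors that can activate CDKN1B, had 326 and 353 normalized reads in sh-NC and 521 and 558 in sh-IRF1 (log2 fold change 0.67, adjusted p = 7.24e-07). FOXO3 had more reads, 819 and 826 in sh-NC and 729 and 719 in sh-IRF1. It was not called (log2 fold change -0.18, adjusted p = 0.0532 from limma), and FOXO1, with 1 to 7 reads per library, was not tested.

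**Figure D5:**
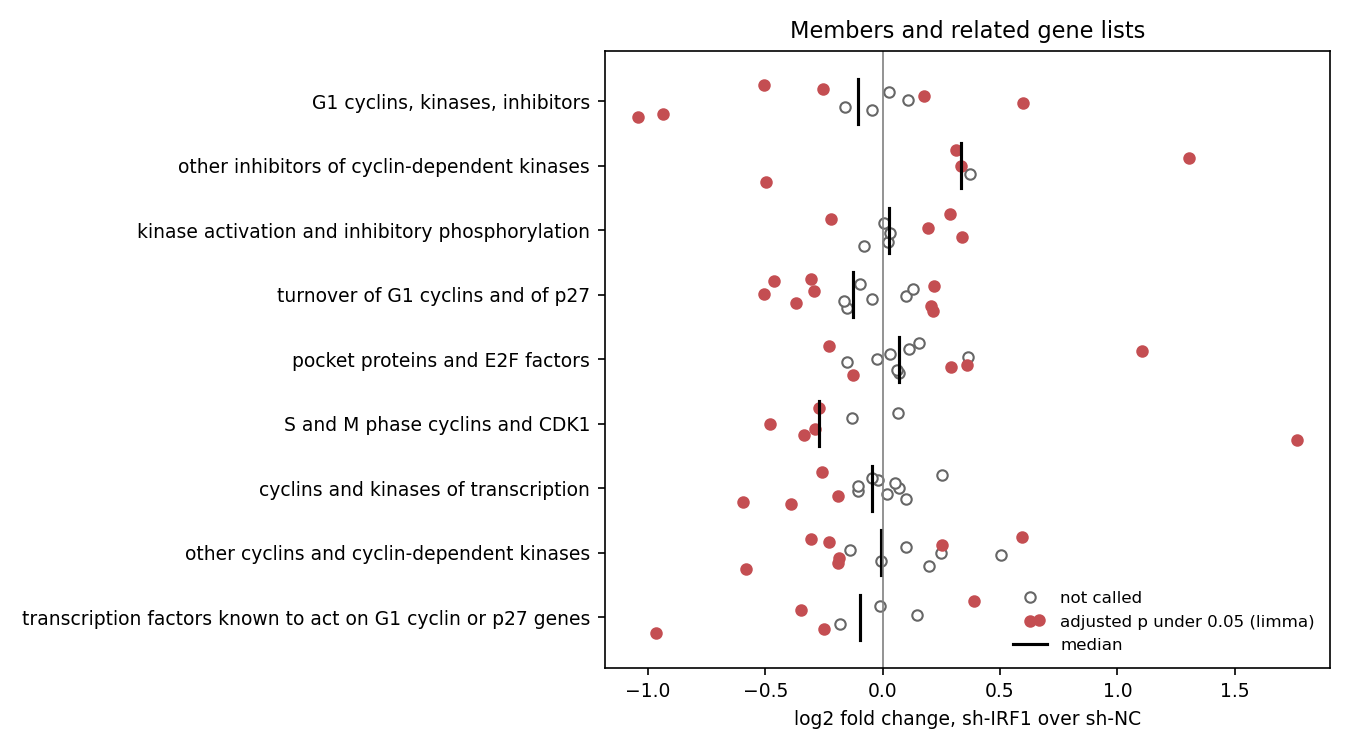
Log2 fold change of sh-IRF1 over sh-NC (horizontal axis) for the 10 G1 genes and for each list of related genes (rows). Points are genes, filled where limma gave an adjusted p under 0.05, and vertical bars are medians, which lie between -0.27 for the S and M phase list and 0.33 for the other inhibitors.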

How the data were processed

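Total RNA libraries of MV4-11 cells were made with an Illumina TruSeq kit. The submitters' processing notes name HISAT2 2.0.5 and hg38. Which tool and annotation were used for counting, and whether strand was used, is not given in the sources used here. What the authors deposited is a signal per gene and library, namely reads over a size factor that differs between libraries, and 100% of the values were whole multiples of 1 read (within 0.0001 of a read), so the reads were recovered. The table held 0 other columns of per-sample values. Symbols matched 23456 of 23622 identifiers, and positions, lengths and overlaps came from GENCODE 44 on GRCh38.

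limma 3.58.1 (R 4.3.3, with variance trend and robust shrinkage, 43 prior degrees of freedom) was run on log2(value + 1) over the 14120 genes that reached a value of 10 in 2 or more libraries, with Benjamini-Hochberg adjustment. edgeR 4.0.16 and DESeq2 1.42.0 on the recovered reads, other scalings, filters and pseudocounts, a replicate block and the omission of each library were alternatives. The code was tested on simulated data.

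The 10 genes and the related lists were chosen with earlier results of these data known. All 10 were named, with IRF1, MYC, for each list the called genes of smallest p that rose and that fell, and CCNB2, CCNC, CDK8 and CDK1. CDKN1C, CDKN2A, CDKN2B, FOXO1, FOXO3, INTS8, TSPAN31, LTO1, CCND2-AS1, PMEL and ENSG00000272509 were named after their values were seen. The replicate numbers were not taken to pair the libraries: deviations of same-numbered libraries had a correlation of -0.02 across genes. Replicates differed by more than sampling noise, with a mean chi-square per gene from 2.37 to 5.99. Markers of other cell types, apart from COL1A1, are not reported here.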

Additional observations from a re-analysis of the deposited data

How the results depend on the processing

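Over the 10 G1 genes and IRF1, 164 alternative values of the log2 fold change were computed. None reversed, 157 kept their direction and their side of the threshold, 6 lost the call (5 of CCND1 and 1 of CDK4) and 1 gained it (CDK6). For the 20 genes named from the related lists, apart from FOXO1 and FOXO3, 297 of 300 alternative values kept both. The number of the 10 genes called higher was 1 (CCNE2) when a log2 fold change beyond 0.5 was also required, and ranged from 1 to 2 with each library left out, the lowest value being that without sh-IRF1 replicate 1. The number called lower ranged from 3 to 4 with each library left out. With the fold limit kept under every alternative, a check chosen after seeing the data, 1 to 3 of the 10 were lower and 1 was higher. CCND1 could not be tested with a value of at least 50 in 2 libraries required. With the replicate block, 4 were lower and 2 higher, as without it, and the block changed no call. When a library is left out, the lone library of its group is assumed to vary like the other group. CCND1 is limited by depth, with 13 to 39 reads per library.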
